A study of Homo sapiens with 6 samples.

Results

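Genes for the protein core of the spliceosome and for the heterogeneous nuclear ribonucleoproteins (hnRNPs) were followed across induction of HOXA5 in Hs578T, a human breast cancer line of long standing and mesenchymal type. Members were taken by gene symbol in the platform's probe table, as every symbol that starts with SNRP, HNRNP, U2AF and a digit, LSM and a digit, PRPF and a digit, or SF3A or SF3B and a digit. This gave 130 of the 22283 probe sets, of which 116 carried 1 symbol and 14 carried several. A total of 126 of the 130 were tested, and those with 1 symbol stood for 60 of the 10444 genes tested. The name snRNP core stands here for every member outside the hnRNP class, with LSM1, LSM12, LSM14A, LSM14B and the U2AF genes included. This core held 41 of the 60 genes and the hnRNP class 19.

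The groups were HOXA5-inducible cells before induction (0 h) and at 6 h and 9 h after induction, each in experiment 1 and in experiment 2, so that each group held 2 Affymetrix arrays. All arrays came from the same inducible line. The labels name the experiments as batches of RNA and do not say whether the line is 1 clone. For the 6 h array of experiment 2 the labels disagree. Its lot line names experiment 1, while its title and description name experiment 2 and were followed here. Changes at 6 h in each experiment, and counts at 6 h in both experiments, rest on that choice. The sources used here do not name the inducing agent, the level of HOXA5 was not analysed here, and 0 of the 6 arrays were uninduced at 6 h or 9 h, so time after seeding and the inducing agent cannot be told apart from HOXA5. The p-values measure only the spread between these arrays, and in bulk RNA fewer cells of a type and less RNA per cell cannot be told apart.

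Introns are removed by small nuclear ribonucleoproteins (snRNPs), in which a U-rich small nuclear RNA is held in a ring of Sm proteins, or, for U6, of LSm proteins. U1 and U2 particles and the U2AF pair mark the ends of the intron, the SF3A and SF3B complexes fasten U2 to the branch point, and PRPF proteins build and run the tri-snRNP and the catalytic centre. The hnRNPs coat nascent transcripts and often steer which exons are kept; many of these genes regulate their own splicing, and all cells need the core.

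Before scaling, the median intensity of the arrays ranged from 18.7 in the 6 h array of experiment 1 to 95.8 in the 0 h array of experiment 1, and the arrays were quantile normalised. The 3′ to 5′ signal ratio of the control probe sets, a measure of RNA integrity, ranged from 0.863 to 1.31 for GAPDH and from 0.918 to 1.82 for ACTB, and both were highest in the 9 h array of experiment 1; the part of these differences in the results was not tested. All 9 mesenchymal markers on the array lay above the floor on every array, with mean log2 levels from 6.99 to 12.4. Of 10 luminal epithelial markers, 7 lay above the floor on every array and 1 lay above the 75th percentile of the array, with EPCAM and KRT19 at the floor of 3.67 on every array. Leukocyte, endothelial and nerve markers lay above that percentile in 0 cases.

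Most members lay in the measurable range: 118 of the 126 tested probe sets lay above the floor on all 6 arrays. At an adjusted p under 0.05 in limma, 0 of the 126 passed at 6 h against 0 h, at 9 h against 0 h, at 9 h against 6 h, or with both induced times against 0 h, where 0% of all 18360 probe sets passed in each. With the experiment as a block, 0 members passed in any of the 4 comparisons, against 0.359% of all probe sets at 9 h, 0.163% for both induced times and 0% in the other comparisons. The lowest adjusted p of a member in limma was 0.559 (PRPF38B at 9 h), and with the block 0.0631 (SNRPD3 at 9 h).

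At an unadjusted p under 0.05, 9 of the 126 member probe sets passed at 9 h, against 7.41% of all probe sets. The count was 4 at 6 h (4.77% of all), 3 at 9 h against 6 h (5.27% of all) and 8 for both induced times (6.19% of all). With the block it was 22 at 9 h (13.9% of all), 10 of them higher (7.29% of all) and 12 lower (6.57% of all). It was 18 at 6 h with the block (9.7% of all), 6 of them higher (4.87% of all) and 12 lower (4.83% of all). It was 7 at 9 h against 6 h (9.24% of all) and 19 for both induced times (12.3% of all) with the block. The 12 that were lower at 6 h make up 9.52% of the 126. The standard error of a member gene's log2 change at 9 h ranged from 0.21 to 0.60 with a median of 0.32, so that changes of the sizes below could be measured only coarsely. The changes that follow are therefore given as measured values in each experiment, and none passed the test.

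By gene, 16 of the 60 members were higher at 9 h than at 0 h in both experiments, against 28% of all genes, and 20 were lower in both, against 29.5% of all genes. Within the snRNP core 8 of 41 were higher and 16 lower in both, while among the hnRNPs 8 of 19 were higher and 4 lower. At 6 h, 20 of the 60 were higher in both (26.9% of all genes) and 12 lower (25% of all genes). The roles are taken in turn below.

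The 7 Sm genes encode the ring that is loaded onto U1, U2, U4 and U5 RNA. By the brightest probe set of each gene, all 7 had a lower mean log2 level at 9 h than at 0 h. The other probe sets of SNRPB, SNRPE and SNRPD1 had changes of 0.07, 0.08 and -0.37. By the brightest probe sets the 7 changes ran from -1.22 to -0.22 with a median of -0.45, where the median of all genes was -0.02. The median in experiment 1 was -0.22, that in experiment 2 -0.89. At 6 h the median was -0.54, with 0.03 in experiment 1 and -0.90 in experiment 2. The lower Sm levels were thus mostly those of experiment 2. The 6 h median was 0.00 on dropping the 6 h array of experiment 2, the array whose labels disagree. Dropping the 9 h array of experiment 1 gave a 9 h median of -0.90, and dropping that of experiment 2 gave -0.30.

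SNRPD3, the D3 subunit of the ring, had log2 levels of 10.61 and 10.26 at 0 h, 10.08 and 8.99 at 6 h, then 9.64 and 8.79 at 9 h, in experiments 1 and 2 in that order. Both arrays at each induced time lay below both 0 h arrays. The level at 9 h was 2.33-fold lower than at 0 h, a log2 change of -1.22 ± 0.43 (SE of the fit, n = 2 arrays a group), with an adjusted p of 0.626 in limma and 0.0631 with the block. SNRPF had 9.30 and 9.72 at 0 h, 8.87 and 8.40 at 6 h, then 8.50 and 8.38 at 9 h. Its induced arrays again all lay below its 0 h arrays, and the level at 9 h was 2.10-fold lower, a log2 change of -1.07 ± 0.29 (adjusted p = 0.563 in limma, 0.113 with the block).

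SNRPE had log2 levels of 9.97 and 10.14 at 0 h, 9.76 and 9.26 at 6 h, then 9.75 and 9.12 at 9 h, so both induced groups lay below the 0 h arrays. Its log2 change at 9 h was -0.62 ± 0.30, with -0.22 in experiment 1 and -1.02 in experiment 2. SNRPE, SNRPF and SNRPG come together in one subcomplex before the ring closes, but SNRPG behaved differently in experiment 1. SNRPG had 9.76 and 9.91 at 0 h, 9.83 and 9.01 at 6 h, then 9.93 and 9.28 at 9 h, and was higher at 9 h by 0.18 in experiment 1 and lower in experiment 2 (-0.62).

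SNRPD1 showed the same split, with 9.07 and 8.99 at 0 h, 9.10 and 7.81 at 6 h, then 9.22 and 8.12 at 9 h. SNRPD2, among the 3 core genes with the highest mean level, had 10.56 and 10.81 at 0 h, 10.71 and 10.12 at 6 h, then 10.56 and 9.92 at 9 h. In experiment 1 these subunits hardly moved, and the lower levels were those of experiment 2. SNRPB, which encodes the B and B′ proteins, was the exception at 6 h, with 9.61 and 10.19 at 0 h, 10.13 and 10.29 at 6 h, then 9.31 and 9.73 at 9 h.

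**Figure D1:**
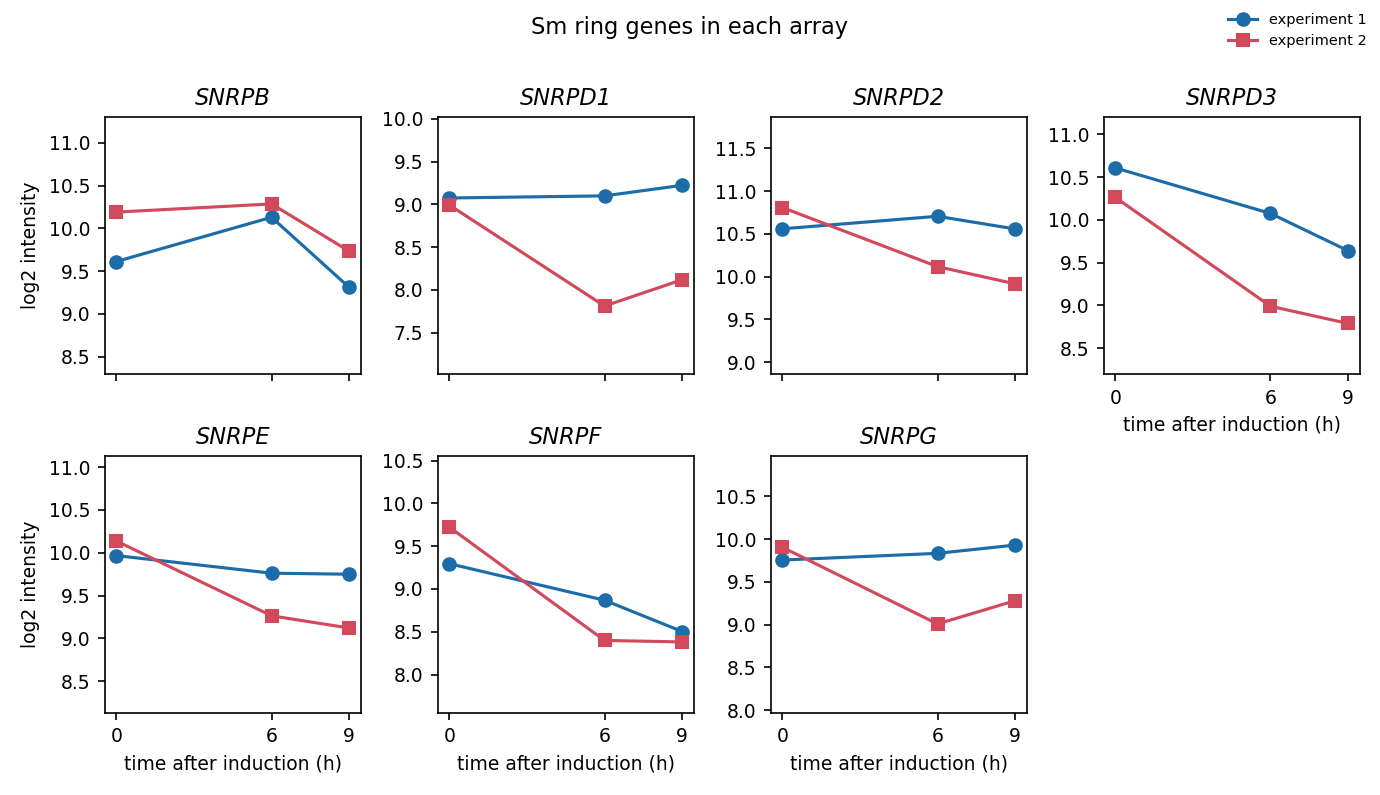
Log2 intensity of the brightest probe set of each Sm gene (vertical axis) against hours after induction (horizontal axis), with 1 point per array and 1 line per experiment. Every panel spans the same number of log2 units. SNRPD3, SNRPF and SNRPE lie lower at 6 h and 9 h in both experiments, while SNRPD1, SNRPD2 and SNRPG lie lower in experiment 2 and near their start in experiment 1.

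The windows of 250 bases before the annotated 5′ end are shown for the Sm genes with the largest changes, for SNRPB, which carries both motifs searched, and for PRPF38B, whose change had the opposite sign. They come from RefSeq on GRCh38.p14, where SNRPD3 is at chr22:24555400-24555649 on the plus strand, SNRPF at chr12:95858702-95858951 on the plus strand, SNRPB at chr20:2470790-2471039 on the minus strand and PRPF38B at chr1:108692060-108692309 on the plus strand. Capitals mark TAAT, the core bound by many homeodomains, and CCGGAAG, a core bound by ETS factors, each on either strand. For SNRPD3 the table lists another start 349 bases further into the gene, and its window is not shown.
SNRPD3: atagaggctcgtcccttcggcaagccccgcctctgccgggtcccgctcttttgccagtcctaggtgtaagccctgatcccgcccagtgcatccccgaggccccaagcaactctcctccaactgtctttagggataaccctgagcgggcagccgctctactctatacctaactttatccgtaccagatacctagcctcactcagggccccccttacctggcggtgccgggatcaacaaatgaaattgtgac
SNRPF: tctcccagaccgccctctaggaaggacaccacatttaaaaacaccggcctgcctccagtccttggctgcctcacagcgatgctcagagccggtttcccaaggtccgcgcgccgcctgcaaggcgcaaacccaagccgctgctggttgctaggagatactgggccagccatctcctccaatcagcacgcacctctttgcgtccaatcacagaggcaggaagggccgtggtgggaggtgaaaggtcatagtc
SNRPB: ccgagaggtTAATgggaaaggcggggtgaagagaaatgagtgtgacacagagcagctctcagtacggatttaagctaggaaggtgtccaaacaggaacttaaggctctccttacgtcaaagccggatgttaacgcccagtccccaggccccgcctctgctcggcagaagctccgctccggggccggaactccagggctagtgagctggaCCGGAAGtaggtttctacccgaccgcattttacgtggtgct
PRPF38B: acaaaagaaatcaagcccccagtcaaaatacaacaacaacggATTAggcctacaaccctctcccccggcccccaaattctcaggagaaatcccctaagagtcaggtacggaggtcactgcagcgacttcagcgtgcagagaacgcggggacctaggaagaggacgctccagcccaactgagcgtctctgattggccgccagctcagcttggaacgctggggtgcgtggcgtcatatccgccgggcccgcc

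Of the 60 members, 51 were listed in the promoter table and 47 had a window at the annotated 5′ end; 4 were listed only at starts inside the gene and were left out, SNRPE and SNRPG among them. TAAT was found in 16 of the 47 windows, or 34%, and in 48.8% of all 24882 windows chosen the same way. CCGGAAG was found in 16 of the 47 as well, where it was found in 8.81% of all windows. By role it was present in 5 of 7 SF3 windows, 2 of 4 Sm windows and 1 of 16 hnRNP windows. TAAT was present in 4 of 7 PRPF windows and 1 of 4 Sm windows. These are matches of letters. TAAT and CCGGAAG do not overlap each other, while matches of the same motif can, as in the SNRPC window. The 24882 windows were not limited to tested genes or matched for base content, and what the differences in share reflect was not tested.

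SNRPA and SNRPC, proteins of the U1 particle that reads the 5′ splice site, also lay lower at 9 h. SNRPA had log2 levels of 8.72 and 8.86 at 0 h, 8.81 and 7.80 at 6 h, then 7.49 and 8.14 at 9 h, a change at 9 h of -0.98 ± 0.40. SNRPC had 8.27 and 8.78 at 0 h, 9.04 and 7.71 at 6 h, then 7.70 and 7.79 at 9 h, a change of -0.78 ± 0.45. For both genes the 9 h arrays lay below the 0 h arrays. The 6 h arrays lay on either side of the 0 h arrays for SNRPC, and for SNRPA 1 lay between them and 1 below. The U2 proteins SNRPA1 and SNRPB2 had mean changes at 9 h of 0.09 and 0.10, with opposite signs in the experiments. SNRPA1 had 0.34 in experiment 1 and -0.17 in experiment 2, and SNRPB2 had 0.92 and -0.71.

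The 8 LSm genes encode the ring on the 3′ end of U6 RNA, in which LSM8 is the nuclear subunit, and the ring with LSM1 that works in cytoplasmic mRNA decay. Their median change at 9 h was -0.17, and the changes of single subunits had both signs. LSM8 had log2 levels of 7.39 and 7.56 at 0 h, 7.61 and 7.95 at 6 h, then 8.40 and 7.97 at 9 h, a change of 0.71 ± 0.31 with no overlap between 0 h and 9 h. LSM4, a subunit of both rings, had 9.33 and 10.00 at 0 h, 9.78 and 10.13 at 6 h, then 8.61 and 9.31 at 9 h. Its change at 9 h was near alike in both experiments, -0.72 and -0.69, with an adjusted p of 0.707 in limma and 0.171 with the block.

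LSM7 had log2 levels of 8.58 and 9.55 at 0 h, 8.66 and 8.26 at 6 h, then 8.31 and 8.30 at 9 h, a change at 9 h of -0.76 ± 0.36. LSM1, which sets the decay ring apart, had changes of 0.07 at 6 h and 0.03 at 9 h and the smallest range over the 6 arrays of any LSm gene, 0.22. LSM2 and LSM3 had changes at 9 h of -0.37 and -0.34, LSM6 of 0.05, and LSM5 less than 0.01 in size. For LSM5 this was the mean of 0.36 in experiment 1 and -0.36 in experiment 2. LSM12, LSM14A and LSM14B share the name without being ring subunits, and had changes at 9 h of -0.37, 0.20 and -0.53. Of these LSM14B, a low-level gene, had 4.76 and 5.48 at 0 h, the floor of 3.67 and 3.91 at 6 h, then 4.84 and 4.34 at 9 h. It was the 1 member probe set at least 2-fold lower at 6 h in both experiments, where 1.25% of all were, and 0 were at least 2-fold higher (1.24% of all).

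The 8 SF3 genes encode the U2-bound complexes at the branch point. Their median change was 0.13 at 6 h and -0.08 at 9 h, and most of them were higher in experiment 2. Neither sign held when 1 array was dropped, with medians from -0.17 to 0.41 at 6 h and from -0.46 to 0.36 at 9 h. All 8 were higher in experiment 2 than in experiment 1 at 0 h, with a median difference of 0.52, 7 at 6 h (0.51) and 5 at 9 h (0.77), and 62.5% of them were higher at all 3 times, against 22.3% of all genes. SF3B1, the large branch-point subunit that is mutated in several cancers, had 9.71 and 10.29 at 0 h, 9.75 and 10.53 at 6 h, then 9.94 and 10.75 at 9 h. SF3A1 had 8.69 and 9.61 at 0 h, 9.28 and 9.86 at 6 h, then 8.88 and 9.62 at 9 h. In both genes experiment 2 lay above experiment 1 at every time. With 1 array per experiment and time this difference was not tested.

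Among the probe sets standing for the SF3 genes, the largest changes at 9 h were negative. The other probe set of SF3B3 had 0.60, where the one standing for the gene had -0.06. SF3B5, a small subunit of SF3B, had log2 levels of 9.38 and 9.84 at 0 h, 9.64 and 9.65 at 6 h, then 9.16 and 9.04 at 9 h, a change of -0.51 ± 0.25. SF3A3 had 7.74 and 8.19 at 0 h, 7.44 and 7.83 at 6 h, then 7.53 and 7.49 at 9 h, a change of -0.46 ± 0.31. Of the U2AF pair, U2AF1, which reads the AG at the 3′ splice site, had 9.59 and 9.36 at 0 h, 9.15 and 8.45 at 6 h, then 9.70 and 8.76 at 9 h. U2AF2, which binds the polypyrimidine tract, had 8.68 and 8.55 at 0 h, 8.39 and 8.67 at 6 h, then 8.46 and 8.74 at 9 h, a change of -0.02 at 9 h.

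The 9 PRPF genes had the highest median change of the roles with more than 3 genes, 0.35 at 6 h and 0.46 at 9 h, with 0.49 in experiment 1 and 0.45 in experiment 2 at 9 h. At 6 h experiment 1 gave 0.43 and experiment 2 gave 0.03, and dropping the 0 h array of experiment 1 took the 6 h median to 0.045. Of these 9 genes 5 were higher (28% of all genes) and 2 lower (29.5% of all genes) at 9 h in both experiments. PRPF38B, a splicing factor of the PRP38 family, had log2 levels of 5.73 and 6.76 at 0 h, 7.02 and 7.07 at 6 h, then 7.78 and 7.87 at 9 h. Every induced array lay above both 0 h arrays and the 9 h arrays above the 6 h arrays. The level at 9 h was 2.99-fold higher, a log2 change of 1.58 ± 0.41, with an adjusted p of 0.559 in limma and 0.0958 with the block.

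PRPF39, related to a yeast U1 protein, had 5.18 and 5.36 at 0 h, 5.86 and 5.38 at 6 h, then 6.41 and 6.51 at 9 h, a log2 change at 9 h of 1.19 ± 0.42 (2.28-fold higher). PRPF38B and PRPF39 were the 2 member probe sets at least 2-fold higher at 9 h in both experiments, where 2.14% of all probe sets were. At 9 h 0 members were at least 2-fold lower in both, against 1.23% of all. PRPF3, a subunit of the U4/U6 particle, had 5.93 and 6.54 at 0 h, 6.40 and 6.76 at 6 h, then 7.36 and 7.23 at 9 h, a change of 1.06 ± 0.39 (2.09-fold higher). All 3 were dim, with 0 h log2 levels between 5.18 and 6.76.

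The other PRPF genes had smaller or negative changes. PRPF6, which bridges the parts of the tri-snRNP, had log2 levels of 7.56 and 8.70 at 0 h, 7.84 and 7.36 at 6 h, then 7.01 and 7.68 at 9 h, a change of -0.78 ± 0.46. PRPF8, the scaffold of the catalytic centre, had 9.09 and 9.20 at 0 h, 8.91 and 9.18 at 6 h, then 8.45 and 9.19 at 9 h, so that its lower mean at 9 h was that of 1 array. PRPF19, a ubiquitin ligase of the catalytic spliceosome, and PRPF4, a partner of PRPF3, had changes at 9 h of 0.46 and 0.55 with no overlap of the groups. PRPF31 and PRPF18 had 0.10 and 0.04, for PRPF31 from 0.49 in experiment 1 and -0.28 in experiment 2. The other probe sets of PRPF31 and PRPF18 had -0.62 and -0.89, lower in both experiments.

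**Figure D2:**
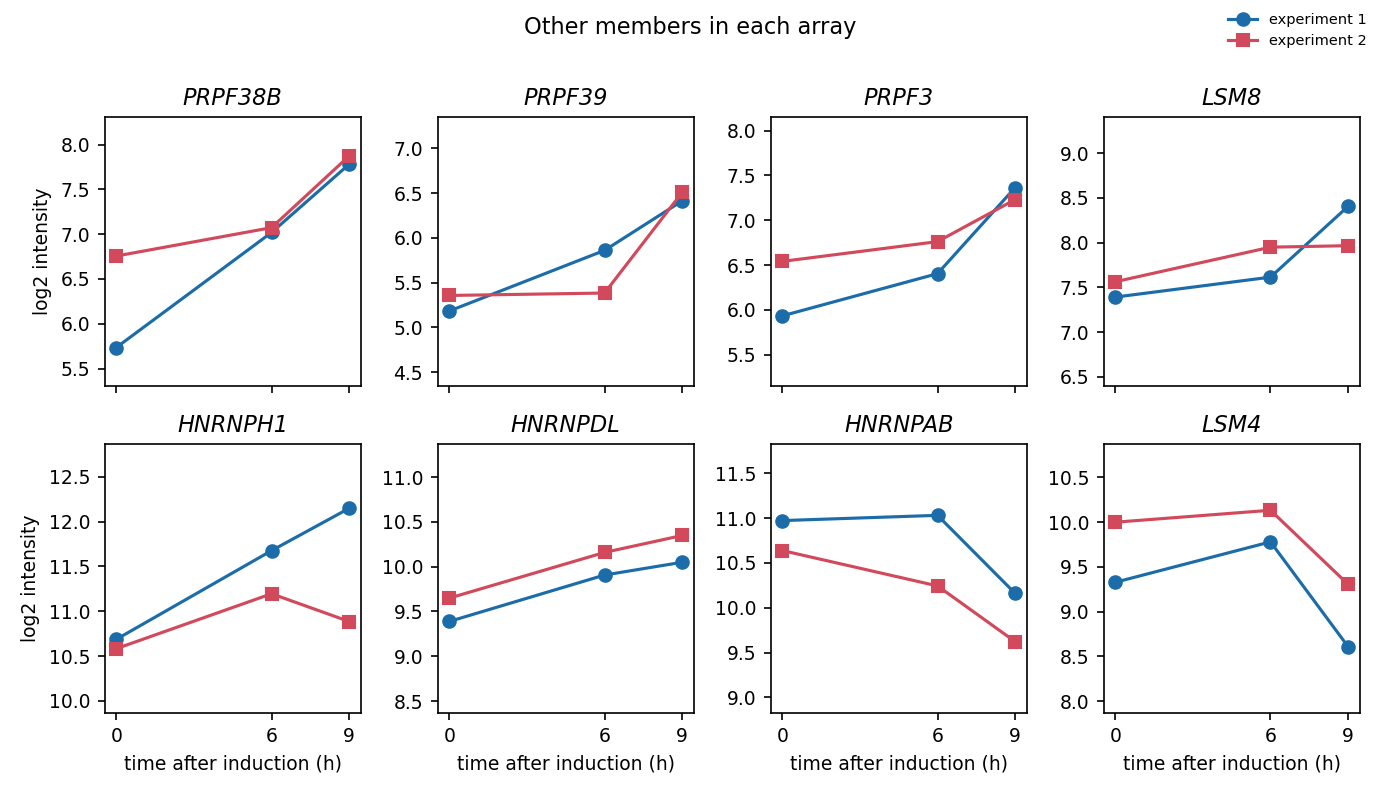
Log2 intensity of 8 members outside the Sm ring (vertical axis) against hours after induction (horizontal axis), with 1 point per array and 1 line per experiment; every panel spans the same number of log2 units. PRPF38B, PRPF39, PRPF3, LSM8 and HNRNPDL lie higher at 9 h in both experiments, HNRNPAB and LSM4 lie lower, and HNRNPH1 lies higher mainly in experiment 1.

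The 19 hnRNP genes had a median change of 0.02 at 6 h and 0.03 at 9 h, with changes at 9 h from -0.93 to 0.88. Dropping 1 array gave medians from -0.18 to 0.02 at 6 h and from -0.026 to 0.16 at 9 h, so that neither sign held. The class counts the pseudogene HNRNPA3P1, a low-level member with a mean log2 of 4.38 and 2 of 6 arrays at the floor. HNRNPH1, which binds G-rich runs near splice sites and had one of the 3 highest mean levels of the class, had log2 levels of 10.69 and 10.58 at 0 h, 11.68 and 11.20 at 6 h, then 12.15 and 10.89 at 9 h. Its induced arrays all lay above its 0 h arrays, with a change at 9 h of 0.88 ± 0.41, from 1.46 in experiment 1 and 0.30 in experiment 2. HNRNPDL, related to HNRNPD, had 9.39 and 9.65 at 0 h, 9.91 and 10.16 at 6 h, then 10.05 and 10.35 at 9 h. Its change at 9 h of 0.68 ± 0.24 (1.60-fold higher) was close in both experiments, 0.66 and 0.70, and its adjusted p was 0.631 in limma and 0.156 with the block.

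The largest lower levels in the class were those of HNRNPA0 and HNRNPAB. HNRNPAB had 10.97 and 10.64 at 0 h, 11.03 and 10.24 at 6 h, then 10.16 and 9.62 at 9 h, a log2 change at 9 h of -0.91 ± 0.33 (1.88-fold lower) with an adjusted p of 0.638 in limma and 0.0867 with the block. HNRNPA0, which binds AU-rich mRNA, had 9.02 and 9.05 at 0 h, 8.56 and 7.25 at 6 h, then 8.76 and 7.45 at 9 h. Here the lower level was mainly in experiment 2, by -1.60 at 9 h against -0.26 in experiment 1.

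HNRNPK, HNRNPU, HNRNPC and HNRNPA1 had changes at 9 h between -0.07 and 0.31. HNRNPK, a poly(C)-binding protein, had 10.12 and 10.24 at 0 h, 10.16 and 10.25 at 6 h, then 10.33 and 10.35 at 9 h, the smallest range of the class at 0.23. HNRNPU, the scaffold attachment factor, had 10.38 and 10.97 at 0 h, 10.65 and 11.20 at 6 h, then 10.39 and 10.83 at 9 h, so that its experiments differed more than its times. HNRNPC, which binds uridine tracts, had 10.09 and 10.39 at 0 h, 10.21 and 10.68 at 6 h, then 10.25 and 10.84 at 9 h. HNRNPA1, a well-known splicing silencer, was highest at 6 h, with 9.37 and 9.47 at 0 h, 10.02 and 9.79 at 6 h, then 9.77 and 9.52 at 9 h. That holds for the probe set standing for HNRNPA1, while its other 2 had negative changes at 6 h, the lowest -1.05. HNRNPH3 and HNRNPF had changes at 9 h of 0.53 and 0.45 with no overlap with 0 h, and HNRNPM of -0.42.

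**Figure D3:**
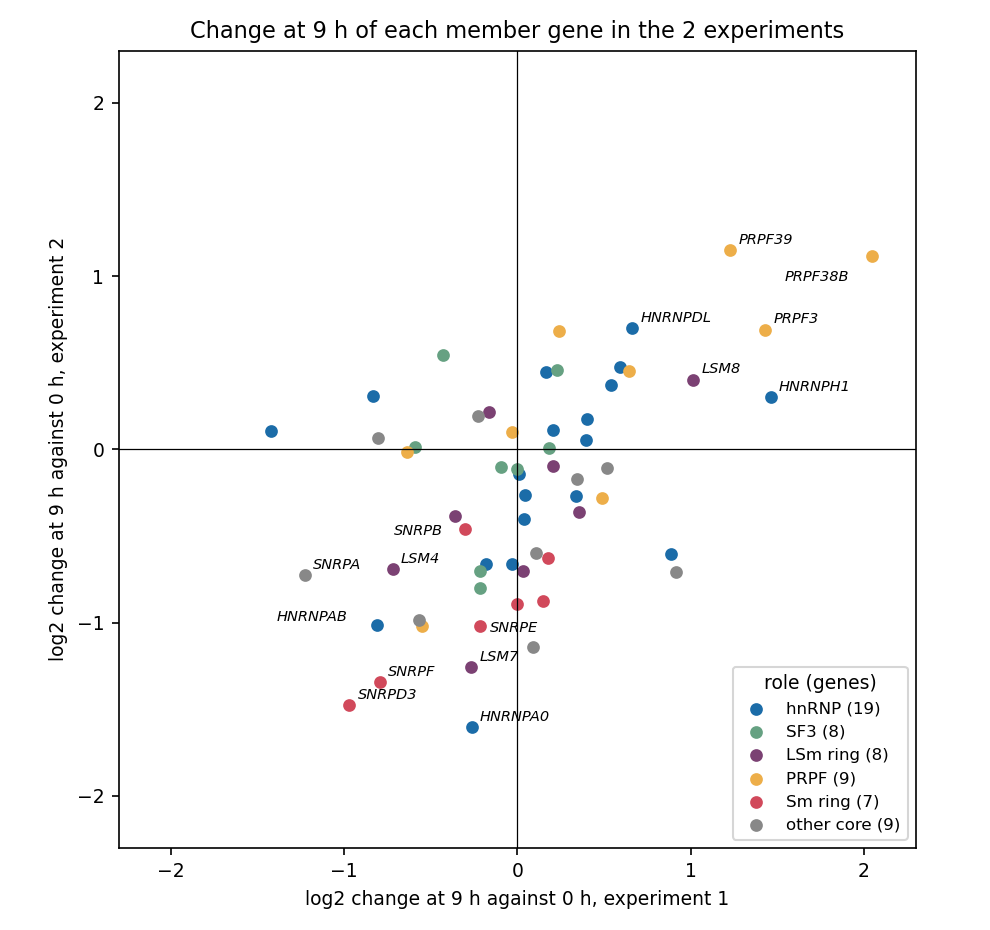
Log2 change at 9 h against 0 h of each of the 60 member genes in experiment 1 (horizontal axis) and experiment 2 (vertical axis), coloured by role. Genes in the upper right (16) were higher in both experiments and those in the lower left (20) lower in both, with PRPF38B and SNRPD3 farthest out.

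Set side by side, the snRNP core had a median change at 9 h of -0.22 and the hnRNP class of 0.03, a difference of -0.26, with -0.17 in experiment 1 and -0.34 in experiment 2. At 6 h the difference was -0.06, and its sign differed between experiments, 0.05 and -0.22. For 9 h against 6 h it was -0.21 and for both induced times against 0 h -0.17. With Sm genes alone as the core the difference was larger, -0.48 at 9 h and -0.56 at 6 h. At 6 h this was -0.10 in experiment 1 and -0.88 in experiment 2, and at 9 h -0.39 and -0.95. For the whole core, the difference at 9 h depended on which probe sets were counted. It was 0.19 without probe sets whose ID ends in _x_at or _s_at, and -0.0306 when every member probe set with 1 symbol was counted. Within the core, the PRPF and Sm medians lay on opposite sides of the hnRNP median.

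**Figure D4:**
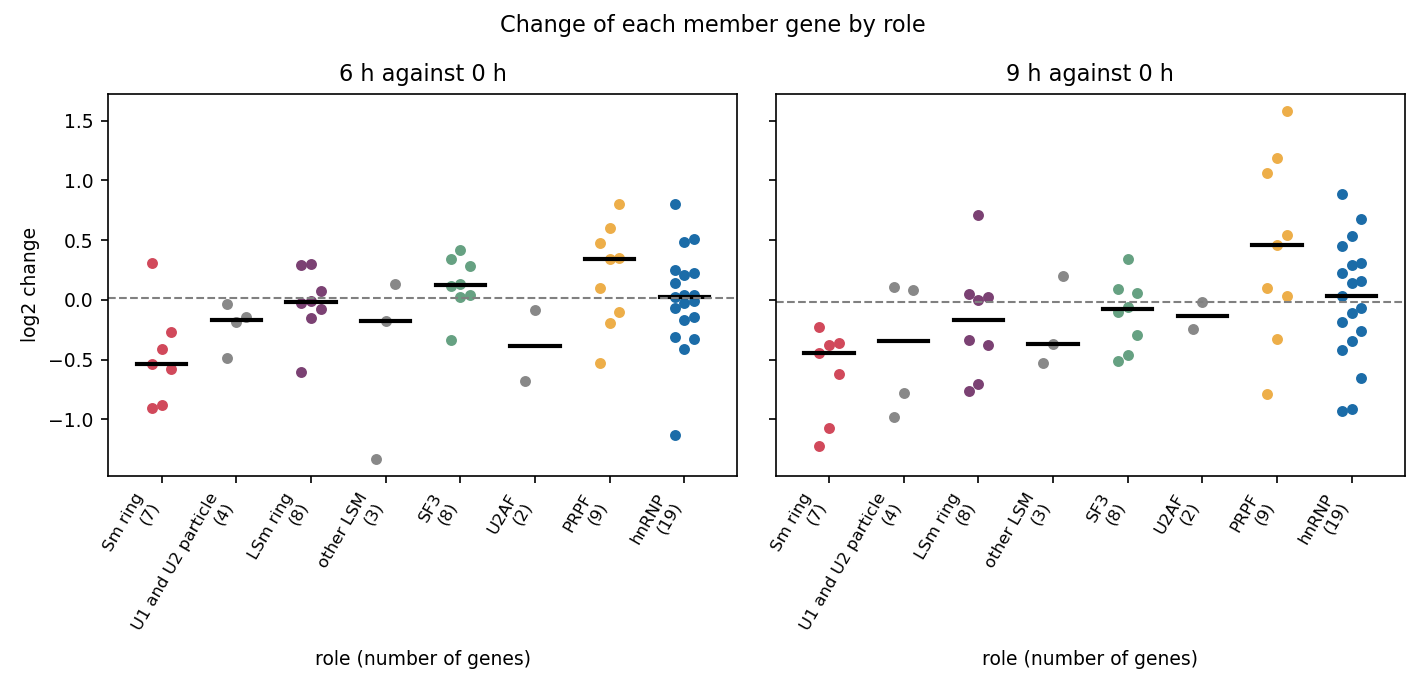
Log2 change of each member gene by role (vertical axis in log2 units), with 1 point per gene and a bar at the median of the role. Sm genes lie below 0 at 9 h (median -0.45) and PRPF genes mostly above it (median 0.46), with hnRNP genes spread on both sides (median 0.03).

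At 9 h, 12 of the 60 member genes had both arrays above both 0 h arrays (19.2% of all genes) and 15 had both below (19.4% of all genes). The genes below were HNRNPA0, HNRNPA3, HNRNPAB, LSM2, LSM4, LSM7, SF3A3, SF3B3, SF3B5, SNRPA, SNRPC, SNRPD2, SNRPD3, SNRPE and SNRPF. At 6 h 8 lay above (16.8% of all genes) and 8 below (15.3% of all genes), and between 9 h and 6 h 7 lay above (14.8%) and 7 below (15.4%). Of the genes below 0 h, HNRNPA0, HNRNPA3, SNRPD3, SNRPE and SNRPF were on the list at both induced times. PRPF38B, PRPF39 and LSM8 were above 0 h at both times and above 6 h at 9 h.

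Several genes were read by more than 1 probe set, and these did not always share a sign. Of 31 genes with several tested probe sets, 18 had probe sets of opposite sign at 9 h, and in 6 of them at least 1 probe set was higher and at least 1 lower in both experiments. All 5 probe sets of HNRNPDL had positive changes at 9 h, from 0.08 to 0.68, and all 4 of HNRNPC were positive too. The 4 probe sets of HNRNPH1 ran from -0.20 to 0.88, and the second probe sets of HNRNPA0 and SNRPB had 0.14 and 0.07 where those standing for the gene had -0.93 and -0.38. For SNRPE the probe set without an _s_at or _x_at ending had 0.08 at 9 h and 0.41 at 6 h, so that its lower level rested on the other. Such endings mark probe sets that may bind related transcripts, and 56.9% of member probe sets had one, against 49.2% of all tested. Sm and hnRNP genes have many processed pseudogenes, and the levels of near-identical copies are uncertain here. The 14 probe sets with several symbols, of which 5 list SNRPN, had changes at 9 h from -0.84 to 1.01.

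**Figure D5:**
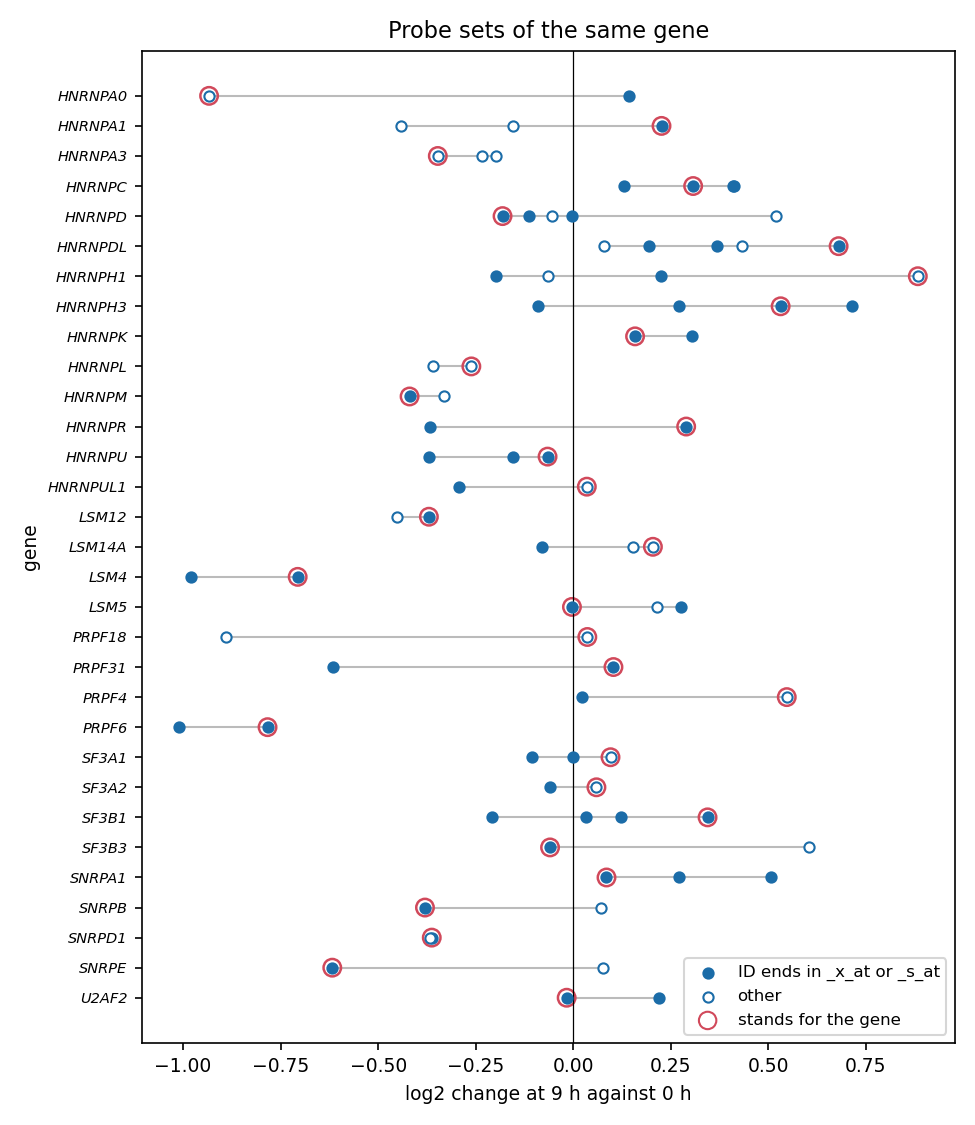
Log2 change at 9 h against 0 h (horizontal axis) of every tested probe set of the 31 member genes with several (vertical axis); filled points have IDs ending in _x_at or _s_at and a ring marks the brightest probe set, which stands for the gene. The probe sets of 18 genes lie on both sides of 0.

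The other proteins of the pathway were taken from 6 lists of 96 genes, of which 72 were tested. In limma 0 of the 72 passed in any comparison, with or without the block, and 31 were higher (28% of all genes) and 20 lower (29.5% of all genes) in both experiments at 9 h. The catalytic-step list had a median change at 9 h of 0.32, with 10 of 16 genes higher and 3 lower in both experiments, to be read against the same shares of all genes. Early recognition factors had 0.25, with 6 of 10 higher and 1 lower. The list of U snRNP proteins, particle partners of the Sm ring with SNRNP and other symbols (SNU13 among them), had -0.09. Among genes shared by both experiments, SNU13, which binds the U4 RNA, had -1.24 and GEMIN6, of the SMN complex that loads the Sm ring, had -1.33. SMNDC1, a U2-bound factor, had 0.94, COIL, the coilin of Cajal bodies, had 0.62, and TARDBP, or TDP-43, had -0.85. The largest rise of the 72 was that of DHX8, 1.84, with 3.01 in experiment 1 and 0.68 in experiment 2. Its 0 h array of experiment 1 was at the floor. The lowest adjusted p of the 72 in limma was 0.550 (BCAS2 at 9 h, a change of 1.05).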

How the data were processed

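The authors deposited 1 linear intensity per probe set and array, with no scaling between arrays; no source used here names the software that made it. Trimmed means differed 5.49-fold, so the arrays were quantile normalised, then values under the 25th percentile (12.7 intensity units, 3.67 in log2) were set to it, and log2 was taken. Probe sets with at least 2 of 6 arrays above the floor (18360) were fitted in limma 3.58.1 under R 4.3.3 with an intensity trend, two-sided, Benjamini-Hochberg over all of them. The fit was tested on simulated data. The brightest probe set with 1 symbol stood for a gene.

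The experiment number, taken from titles and descriptions, marks a shared RNA batch and pairs the arrays. Deviations from group means correlated at 0.247, 0.336 and 0.391. The lot line of the 6 h array of experiment 2 names the other experiment, so the pairing of that array is uncertain. The fit without the block was the main one (3 residual degrees of freedom, 2 with the block). Members, lists and tests were chosen with earlier results of these data known. Named were members past the threshold, the 2 largest changes each way per role shared by both experiments at 9 h, the 3 brightest of each class, and examples of disagreeing probe sets; other members named were chosen after their values were seen. Alternatives covered the block, the lot line, scaling, floor, filter, trend, probe set choice and leaving out each array. Promoter windows from RefSeq (GRCh38.p14) were used only where their start is the annotated 5′ end of the gene. Precision is limited by the 2 arrays in each group.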

Additional observations from a re-analysis of the deposited data

How the results depend on the processing

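In limma the count of member probe sets and of other splicing genes past the threshold stayed 0 under every alternative run, and with the experiment as a replicate block, the pairing by RNA batch, it was 0 for members too. Without scaling, all genes shifted by -1.36 at 6 h and -0.57 at 9 h, and values are relative to that shift. The core minus hnRNP difference at 9 h was -0.14 with the mean of a gene's probe sets, 0.19 without _x_at and _s_at probe sets, -0.48 with Sm genes alone and -0.0306 over member probe sets, an alternative chosen after seeing the data. With Sm genes alone it was -0.56 at 6 h and -0.56 for both induced times. For the whole core, the difference for both induced times was 0.21 without _x_at and _s_at probe sets. For 9 h against 6 h it was -0.0566 with median scaling, -0.0566 without scaling, 0.0364 without _x_at and _s_at probe sets, and -0.22 to 0.0257 when 1 array was left out. Of 840 gene values under alternatives, 40 changed sign. At 6 h these were, with median scaling, HNRNPU -0.00123, LSM4 -0.000289, SF3B1 -0.15 and SF3B5 -0.26, without scaling SF3B1 -0.13 and SF3B5 -0.24, and with the mean of probe sets HNRNPU -0.0142, LSM4 -0.26 and SF3B1 -0.0468. With the lot line as the block PRPF8 was 0.11 and SNRPC 0.00794. SNRPE was 0.41 without _x_at and _s_at probe sets. At 9 h SNRPE was 0.0769 and SNRPB 0.0715 without those, and SF3A1 -0.00376 with the mean of probe sets. The cause of these changes was not tested.

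Leaving out 1 array, the log2 change at 6 h ranged from -0.55 to 0.23 for HNRNPAB, from -0.042 to 0.55 for HNRNPU, from -0.035 to 0.62 for LSM4, from -1.09 to 0.038 for PRPF6, from -0.24 to 0.034 for PRPF8, from -0.046 to 0.88 for SF3A1, from -0.25 to 0.52 for SF3B1, from -0.19 to 0.26 for SF3B5, from -0.99 to 0.022 for SNRPA, from -0.81 to 0.53 for SNRPC, from -1.22 to 0.067 for SNRPD1, from -0.56 to 0.023 for SNRPD2, from -0.82 to 0.0032 for SNRPG. In the same way the log2 change at 9 h ranged from -0.36 to 0.23 for HNRNPU, from -0.71 to 0.043 for PRPF8, from -0.37 to 0.55 for SF3A1, from -0.058 to 0.74 for SF3B1, from -0.90 to 0.19 for SNRPD1, from -0.54 to 0.10 for SNRPG. The number of arrays limits what can be told apart: no member change at 9 h was separated from 0 at the threshold, which does not show that the levels were alike.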
